A study of Drosophila melanogaster with 6 samples.

Results

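The expression of 10 genes of the apoptosis machinery was compared between midguts of *Apc1* mutant and wild-type females: the inducers *rpr*, *hid*, *grim* and *skl*, the inhibitor *Diap1*, the initiator caspase *Dronc* and its adaptor *Dark*, the effector caspases *Drice* and *Dcp-1*, and the Bcl-2 family gene *debcl*. The genes were found by the gene symbol that the deposited table gives, including the older symbols *W* (*hid*), *Ice* (*Drice*), *Nc* (*Dronc*), *Ark* (*Dark*) and *th* (*Diap1*), which yielded 12 of the 18769 probe sets tested, and all 10 genes were represented. *Dark* had 2 probe sets. A second probe set carried the *Dronc* symbol, 1627473_at, but it is listed for both CG8090 and *Nc*. Of its 2 transcript accessions, 1 belongs to *GPHR* and the other was not matched in the RefSeq table, and CG8090 is also an older name of *Dronc*, so the gene it measures is uncertain and its values are given apart.

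The tested flies were homozygous for *Apc1*Q8, a null allele present in the whole animal and throughout development, and the controls were wild type. All flies were females aged 7 days after eclosion, and RNA came from pooled whole midguts, with 3 samples per genotype and 1 Affymetrix Drosophila Genome 2.0 array per sample. Sources differ on the control strain (Canton S in the published methods, w1118 in the series design), and neither says whether the mutants share the background of the controls. Nothing states that the samples of a genotype came from separate cultures, so p-values measure only the spread between these samples. Values are log2 expression values after RMA (robust multi-array average), differences are mutant minus wild type on that scale, and a probe set was called at a limma adjusted p under 0.05 over all 18769 probe sets.

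In *Drosophila*, Reaper, Hid, Grim and Sickle bind the inhibitor of apoptosis protein Diap1 through a short motif at their amino terminus and release caspases from it. Free Dronc assembles with Dark, the homologue of mammalian Apaf-1, into the apoptosome, and Dronc then cleaves the effector caspases Drice and Dcp-1. Caspases exist as inactive precursors whose activity is set by cleavage and by Diap1, and the arrays measured only mRNA. In the adult midgut, dying enterocytes are shed into the lumen and replaced by progeny of intestinal stem cells.

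Of the 10 genes, 1 changed: *Drice* rose in *Apc1* mutant midguts. The other 9 were not called by their brightest probe set. Counted over probe sets, 1 of 12 was called (8.33%), against 11.0% of all probe sets, of which 6.82% were called higher and 4.22% lower in mutants, so the share among the apoptosis genes was near that of the array. At an unadjusted p under 0.05 there were 7 of 12 probe sets, 5 higher and 2 lower in mutants, against 25.0% of all. The same number, 7 of 12, had no overlap between the genotypes, against 31.3% of all. Both counts of 7 include the probe set shared with CG8090 and the dimmer of the 2 *Dark* probe sets, all of them higher in mutants. By the brightest probe set of each gene, 5 of 10 had an unadjusted p under 0.05. These were *Drice*, *Diap1* and *debcl*, higher in mutants, and *hid* and *Dcp-1*, lower in mutants. The matching share over all genes was not computed, and the 25.0% is over probe sets, so this count has no like reference. The median absolute difference was 0.35 over the 12 probe sets and 0.19 over all. With 3 arrays against 3, the smallest p of an exact permutation test on 1 gene is 0.1, so the calls rest on the fit across the array.

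**Figure D1:**
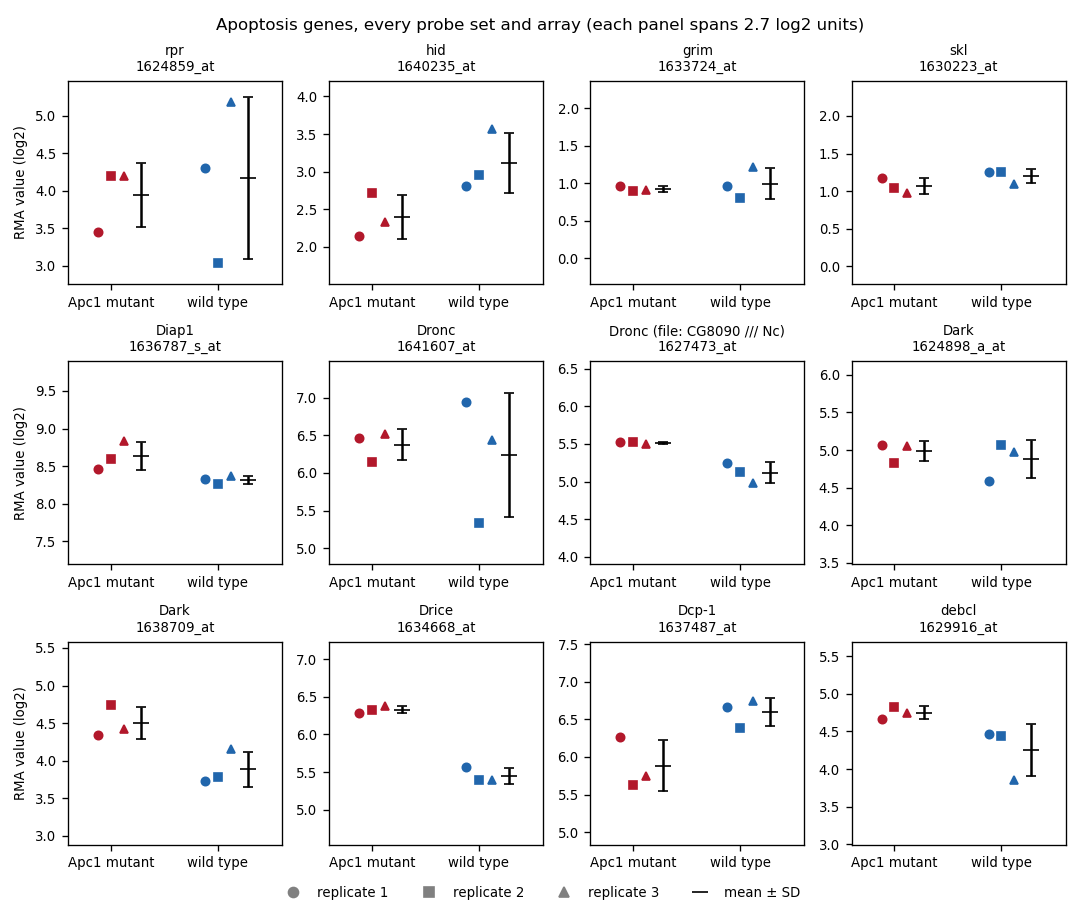
RMA values (log2) of every probe set of the 10 genes on each array, *Apc1* mutant left and wild type right, with the mean ± SD beside the points (n = 3 each); each panel spans the same range in log2 units. The genotypes lie clearly apart for *Drice*, at 6.29 to 6.38 in mutants and 5.39 to 5.57 in wild type, whereas *rpr* and *Dronc* spread widely among the wild-type arrays.

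*Drice* encodes the main effector caspase of the fly and was measured by probe set 1634668_at (3R). Its values were 6.29, 6.32 and 6.38 in *Apc1* mutants, against 5.57, 5.39 and 5.39 in wild type. Every mutant array lay above every wild-type array, and the gap between the genotypes was several times the spread within either. The difference was 0.88 with a standard error of 0.11, or 1.84-fold (95% confidence interval 1.54 to 2.20; limma adjusted p = 0.00272). *Drice* was called in all 15 alternative analyses, with a difference between 0.79 and 0.94.

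Several measures moved with the genotype alongside *Drice*. In whole-midgut RNA, more cells of a type and more RNA per cell cannot be told apart. Of 5 progenitor markers, 2 were called, both higher in mutants (*esg* by 1.10 and *Dl* by 0.68), and the log2 of the summed linear level of the list was 7.35 to 7.42 in mutants and 6.71 to 6.84 in wild type. Of 7 enteroendocrine markers, 5 were called higher and 1 lower, with a summed level of 11.01 to 11.32 in mutants and 10.10 to 10.26 in wild type. *Drice* also lies on the chromosome arm of *Apc* itself, with 110 measured genes between them in the RefSeq order of Release 6 plus ISO1 MT. Of these 110 genes, 16 were called (14.5%), against 14.1% of the measured genes of 3R. The part of cell composition and of linked sequence in the rise of *Drice* was not tested.

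*Dcp-1*, the other effector caspase, was not called, and its values leaned the other way. They were 6.27, 5.63 and 5.75 in *Apc1* mutants (1637487_at, 2R), against 6.67, 6.39 and 6.74 in wild type. The genotypes did not overlap, but mutant replicate 1 lay within 0.12 log2 units of the lowest wild-type array. The difference was -0.71 with a standard error of 0.19, or 0.609-fold (95% confidence interval 0.448 to 0.829), and missed the threshold (limma adjusted p = 0.0543; range over the alternatives 0.0235 to 0.172). It passed without mutant replicate 1, where the difference was -0.91 (adjusted p = 0.0235), after quantile normalization (0.0404), and in 4 other alternatives. Whether *Drice* and *Dcp-1* differed from each other in their response was not tested.

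*Dcp-1* is known for its activity in the ovary, and the level of several ovary and germ line markers differed between the arrays. None of the 9 ovary and germ line markers was called. Their summed level (log2) was 6.68 to 9.41 in mutants and 9.83 to 11.58 in wild type. Most of it came from yolk protein genes, so the sum does not measure germ line RNA alone. The summed level of 4 fat body markers, none of them called, was 5.84 to 7.83 in mutants and 6.52 to 9.23 in wild type. It was lowest in mutant replicate 2 and highest in wild type replicate 2, as *Yp1* was. *Yp1*, *Yp2*, *Yp3*, *Vm26Aa*, *vas* and the germ line marker *nos* were lower in mutants without overlap between the genotypes. *Cp36* was higher in mutants without overlap (difference 0.28), and *bam* differed by 0.03. Of the 9 estimates, 7 were negative and 2 positive. Over the whole array, 31.3% of probe sets had no overlap. *nos* stood at 1.25, 1.01 and 1.25 in mutants, against 3.75, 5.52 and 1.69 in wild type (difference -2.49, limma adjusted p = 0.104). The germ line marker *osk* overlapped in all 3 of its probe sets, and its brightest stood at 2.07, 2.17 and 1.72 in mutants, against 3.24, 6.33 and 1.36 in wild type, while *vas* was at the low end on all arrays. Without wild type replicate 2, the array with the highest *Yp1*, *nos* and *osk*, *Dcp-1* differed by -0.82 (adjusted p = 0.0582). The part of ovary, germ line and fat body RNA in the *Dcp-1* values was not tested.

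The initiator caspase *Dronc* was measured by probe set 1641607_at (3L), at 6.47, 6.14 and 6.52 in *Apc1* mutants, against 6.94, 5.33 and 6.44 in wild type. The mutant arrays sat inside the range of the wild-type arrays, of which replicate 2 was the low one. The SD in wild type, 0.83, was larger than that of 98.4% of all probe sets. The difference of 0.14 had a 95% confidence interval of -0.73 to 1.01 (limma adjusted p = 0.859) and turned to -0.32 without wild type replicate 2 (adjusted p = 0.396). In fold terms the interval ran from 0.602 to 2.01, so changes within it were not excluded by these arrays. The probe set shared with CG8090 stood at 5.52, 5.52 and 5.50 in mutants, against 5.25, 5.13 and 4.98 in wild type, without overlap (difference 0.40, limma adjusted p = 0.0705).

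The probe sets of *Dark* (2R) disagreed. The brighter one, 1624898_a_at, gave 5.07, 4.83 and 5.05 in *Apc1* mutants, against 4.59, 5.07 and 4.98 in wild type, with overlapping genotypes (difference 0.10, 95% confidence interval -0.26 to 0.47, limma adjusted p = 0.743). The dimmer one, 1638709_at, gave 4.34, 4.74 and 4.42 in mutants, against 3.73, 3.78 and 4.15 in wild type. These did not overlap, and the difference of 0.62 (standard error 0.16) missed the threshold (limma adjusted p = 0.0548). Without wild type replicate 3 it passed, at 0.75 (adjusted p = 0.0378). Both probe sets list the same transcripts, and the array table does not say which part of the transcripts each one covers.

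*Diap1*, the inhibitor that holds Dronc, Drice and Dcp-1 in check, was represented by 1636787_s_at (3L) and stood high on the scale, above 94.4% of probe sets or more on every array. Its values were 8.46, 8.60 and 8.83 in *Apc1* mutants, against 8.33, 8.26 and 8.37 in wild type. The genotypes did not overlap, but the lowest mutant and the highest wild-type array lay close together. The difference was 0.31, or 1.24-fold (95% confidence interval 1.00 to 1.53), and was not called (limma adjusted p = 0.195; range over the alternatives 0.102 to 0.436).

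The 4 inducers lie in 1 block on 3L, in the order *hid*, *grim*, *rpr*, *skl*, with 4 protein-coding genes between *hid* and *grim* and 0 between the others in the RefSeq annotation. None of the 4 was called, and all 4 estimates were negative. *hid*, which responds to developmental and survival signals, had values of 2.15, 2.72 and 2.33 in *Apc1* mutants (1640235_at), against 2.81, 2.96 and 3.56 in wild type. The genotypes did not overlap, and 4 of the 6 arrays had *hid* above their median, near the middle of the scale. Its difference was -0.71 with a standard error of 0.23, or 0.610-fold (95% confidence interval 0.420 to 0.885), and was not called (limma adjusted p = 0.0983; range over the alternatives 0.076 to 0.264).

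*rpr*, which is induced by irradiation, steroid hormone and other death signals, had values of 3.45, 4.19 and 4.19 in *Apc1* mutants (1624859_at), against 4.30, 3.04 and 5.18 in wild type. The wild-type arrays enclosed all mutant arrays, and their SD of 1.08 was larger than that of 99.2% of all probe sets. The difference of -0.23 had a 95% confidence interval of -1.40 to 0.94 (limma adjusted p = 0.823), and it became positive when wild type replicate 3 (0.28) or *Apc1* mutant replicate 1 (0.02) was left out. The wild-type array with the lowest *rpr*, replicate 2, was also the one with the lowest *Dronc*.

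*grim* and *skl* were at the low end of the scale. *grim* (1633724_at) stood at 0.97, 0.90 and 0.91 in *Apc1* mutants, against 0.97, 0.80 and 1.22 in wild type. *skl* (1630223_at) stood at 1.18, 1.04 and 0.97 in mutants, against 1.25, 1.26 and 1.09 in wild type. Both genes were below the lower quartile of the array on all 6 arrays, where RMA values do not separate a low level from background. Their differences of -0.07 (limma adjusted p = 0.798) and -0.13 (limma adjusted p = 0.533) therefore do not bound a fold change.

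*debcl*, a pro-apoptotic member of the Bcl-2 family that acts at mitochondria, had values of 4.66, 4.83 and 4.75 in *Apc1* mutants (1629916_at, 2R), against 4.46, 4.44 and 3.86 in wild type. All mutant arrays were higher, and wild type replicate 3 was lower than the rest. The difference was 0.49 with a standard error of 0.18, or 1.40-fold (95% confidence interval 1.05 to 1.87), and was not called (limma adjusted p = 0.136). Without wild type replicate 3 the difference was 0.29.

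**Figure D2:**
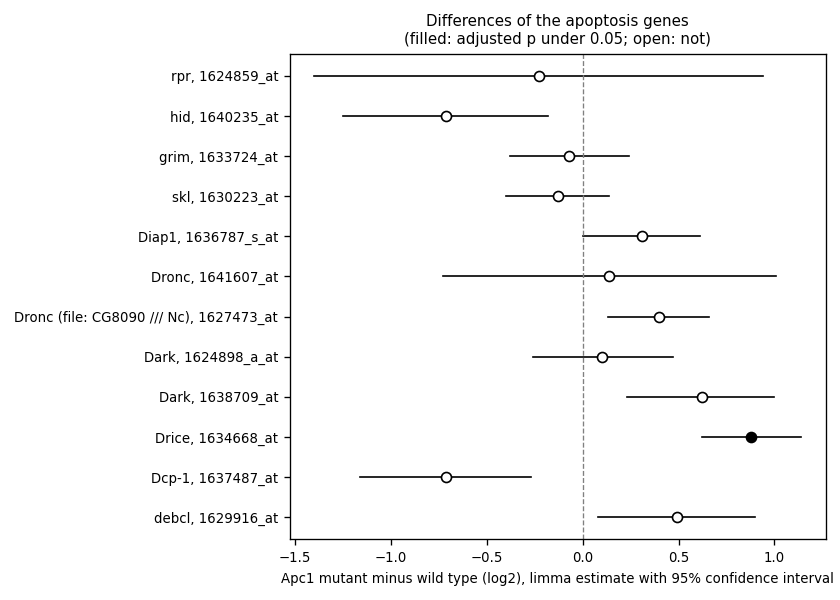
Difference (log2, *Apc1* mutant minus wild type) of every probe set of the 10 genes, as the limma estimate with its 95% confidence interval; filled points were called. *Drice*, at 0.88, is the filled point, and the intervals of *rpr* (-1.40 to 0.94) and *Dronc* (-0.73 to 1.01) are the widest.

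Each array was also left out in turn. *Drice* was called in all 6 of these fits, with a highest adjusted p of 0.0184. *Dcp-1* and the dimmer *Dark* probe set were called in 1 fit each, and no other apoptosis gene in any. The sign of the estimate changed for *rpr*, *grim*, *Dronc* and the brighter *Dark* probe set.

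**Figure D3:**
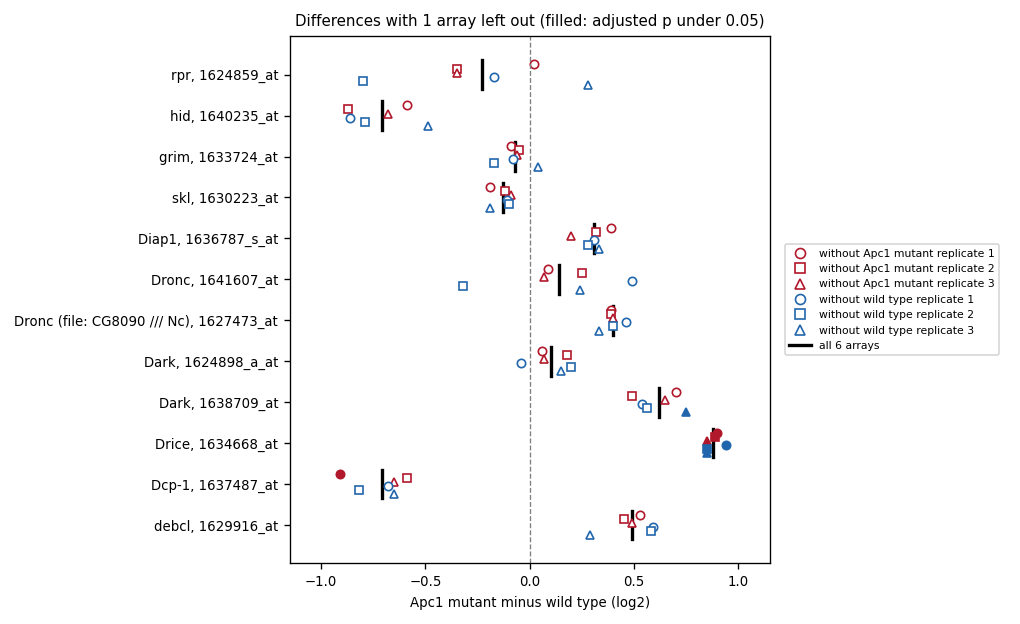
Difference (log2, *Apc1* mutant minus wild type) of every probe set of the 10 genes with all 6 arrays (bar) and with 1 array left out (points, by the array left out; filled where called). The points of *Drice* lie between 0.85 and 0.94, and those of *rpr* between -0.80 and 0.28.

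Other genes of the cell death machinery were set beside these 10, each by its brightest probe set. Of 66 such genes, 17 were called, 16 higher and 1 lower in *Apc1* mutants (median difference 0.20), against 13.7% of all genes, 8.48% higher and 5.23% lower. Without autophagy genes it was 11 of 49, 10 higher and 1 lower (median difference 0.18). The count of 17 was not stable. It was 4, 4 and 1 without *Apc1* mutant replicates 1, 2 and 3, and 5, 10 and 8 without wild type replicates 1, 2 and 3, where fewer probe sets were called on the whole array as well. Among the genes called, *Ubqn* passed in all 6 of these fits and each of the others in 3 or fewer.

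Among the 4 other caspases, 2 were called, both higher. *Damm* had values of 10.32, 10.17 and 10.24 in mutants, against 9.30, 9.76 and 9.27 in wild type (difference 0.80, limma adjusted p = 0.0178). *Dredd*, the caspase of the Imd immune pathway, had values of 6.29, 6.37 and 6.29 in mutants, against 5.84, 5.48 and 5.76 in wild type (difference 0.62, limma adjusted p = 0.0219). Neither gene had overlapping genotypes. *Decay* differed by 0.50 (limma adjusted p = 0.0564) and *Strica* by 0.29 (limma adjusted p = 0.399).

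Among the other proteins with BIR domains, the domain by which Diap1 binds caspases, *Diap2* stood at 6.03, 6.10 and 6.09 in mutants, against 5.62, 5.69 and 5.67 in wild type. It rose by 0.42 in mutants, with little spread within either genotype (limma adjusted p = 0.0415). *Diap2* was called in 0 of the 6 fits with 1 array left out. *Bruce* (0.02) and *Det* (0.39) were not called. Of 9 Bcl-2 and mitochondrial factors, 1 was called: *Jafrac2*, a peroxidase known to bind Diap1 once released from the endoplasmic reticulum, fell by 0.64 (limma adjusted p = 0.0245). *Buffy*, the other Bcl-2 family gene, differed by -0.18 (limma adjusted p = 0.701).

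Of 8 genes listed as regulators of Diap1 turnover and of caspases, 1 was called. This was *Ubqn*, a ubiquilin that carries ubiquitinated proteins to the proteasome and is not known as a specific regulator of Diap1. It stood at 8.87, 9.16 and 9.07 in mutants, against 6.68, 6.75 and 6.81 in wild type, a difference of 2.28 or 4.87-fold (limma adjusted p = 5.21e-05). *morgue*, which promotes Diap1 degradation, differed by 0.67 (limma adjusted p = 0.0506). Of 5 genes of DNA fragmentation none was called by limma, and at an unadjusted p under 0.05 there was 1. *DNaseII*, with the largest difference of the 5, stood at 3.31, 3.21 and 3.59 in mutants, against 4.56, 3.71 and 4.84 in wild type (limma adjusted p = 0.064).

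Of 9 genes listed for the death ligand, its receptors, a death domain adaptor and the p53 branch, 4 were called, all higher in mutants. *wgn*, a receptor of the TNF family, differed by 0.87 (limma adjusted p = 0.0241), and the death domain adaptor *Fadd* by 0.75 (limma adjusted p = 0.0162). *tefu*, the fly ATM kinase, differed by 0.81 (limma adjusted p = 0.0412). *p53* differed by 0.61 in its brightest probe set (limma adjusted p = 0.0345) but by -0.15 in the other (limma adjusted p = 0.825), and it was not called with the mean of its probe sets. The ligand *egr* stood at 3.82, 4.85 and 4.47 in mutants, against 4.07, 4.28 and 4.72 in wild type (difference 0.02, limma adjusted p = 0.974). Of 11 genes of the engulfment of dying cells, *Rac2* (0.83, limma adjusted p = 0.0422) and *Src42A* (0.52, limma adjusted p = 0.0304) were called higher, and the receptor *drpr* was not (0.24, limma adjusted p = 0.353). *Src42A* had other probe sets with differences of -0.07 (limma adjusted p = 0.848) and 0.31 (limma adjusted p = 0.256), and the gene was not called with the mean of its 3 probe sets.

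**Figure D4:**
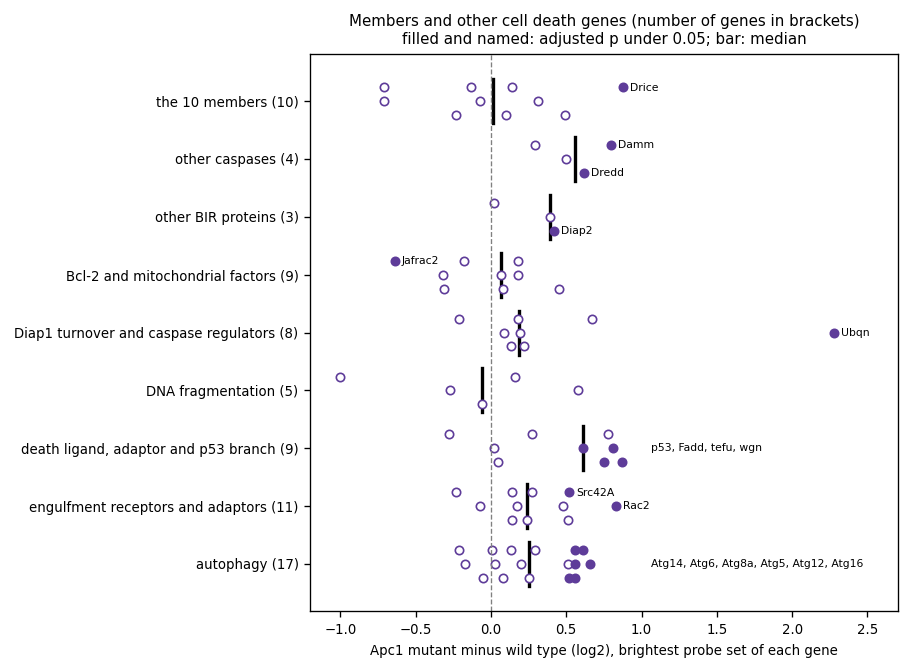
Difference (log2, *Apc1* mutant minus wild type) of the 10 apoptosis genes and of 66 other cell death genes by list, 1 point per gene at its brightest probe set; filled and named points were called and bars are medians. Most filled points lie to the right of 0, *Ubqn* at 2.28 farthest, and *Jafrac2* at -0.64 is the one to the left.

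The arrays themselves had medians between 2.54 and 2.60, and correlated at 0.983 to 0.992 within and 0.954 to 0.964 across genotypes, over probe sets, which are not independent replicates. Of 5 enterocyte markers, 2 were called, both lower in mutants: *betaTry* (-2.04, limma adjusted p = 6.75e-05) and *alphaTry* (-0.53, limma adjusted p = 0.0297). The identity marker *Myo31DF* stood at 8.41 to 8.76 in mutants and 8.07 to 8.22 in wild type. *Myo31DF* (0.47) and *nub* (0.53) were higher without overlap but not called, and *LManVI* differed by 0.10. The summed level of the list (log2) was 12.47 to 12.94 in mutants and 13.16 to 13.39 in wild type. Of 6 hemocyte markers, *Hml* (2.46) and *Ppn* (1.11) were called higher in mutants. *srp* (0.48), *NimC1* (-0.07), *He* (-0.01) and *eater* (-0.29) were not called. The summed level of the list (log2) was 7.39 to 7.50 in mutants and 6.17 to 6.51 in wild type, most of it from *Ppn*. That of 6 visceral muscle markers was 12.01 to 12.32 in mutants and 12.04 to 12.34 in wild type, and that of 4 Malpighian tubule markers 7.31 to 8.02 in mutants and 8.25 to 9.03 in wild type. Of the muscle markers, *Mlc2* was called lower (-0.96, limma adjusted p = 0.00515), with 3 estimates positive and 3 negative. *Tm1* was not called by its brightest probe set (0.09) but was by another (0.49, limma adjusted p = 0.0311). Of the tubule markers, *Irk1* was called lower (-1.28, limma adjusted p = 0.000405), and all 4 estimates were negative. The part of these in the other results was not tested. The *Apc* transcript stood at 6.41, 6.13 and 6.94 in mutants, against 6.55, 5.89 and 6.63 in wild type (difference 0.14, limma adjusted p = 0.795). Its level did not separate the genotypes and, since a null allele can leave the transcript in place, it does not check the labels.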

How the data were processed

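RNA of whole midguts was hybridized to Affymetrix arrays, 1 per sample, and the authors deposited log2 values after RMA normalization, 1 per probe set and array; the submitters' processing notes name MAS5 beside RMA, and the software and background option are not given in the sources used here. The deposited table also holds the authors' group summaries, ratios and p-values for the genotypes, which were not used. The groups follow the sample titles, and each table column was matched to its sample by the column name. Of 18952 probe sets, 183 Affymetrix controls were left out and 18769 were tested with limma (version 3.58.1, R 4.3.3; lmFit with genotype as the only term, then eBayes), with Benjamini-Hochberg adjustment over all 18769; no filter on low values was applied, so all 12 probe sets of the 10 genes were tested. No depth exists for arrays, and their number limits the precision. Probe sets were named through RefSeq accessions (14066) or symbols (310), which gave 12967 gene entries; for counts of genes, each gene was represented by its brightest probe set (mean of the 6 arrays). Of the genes on the lists, *Amy-p* was matched to no entry and was not used here.

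The 10 genes, the other lists and the markers were chosen with earlier results of these data known. The genes named are the 10, *Apc*, and from each other cell death list every gene called or, where none was, the one with the largest difference. Other genes (*Decay*, *Strica*, *Bruce*, *Det*, *Buffy*, *morgue*, *egr*, *drpr*, the markers) and the count of genes between *Drice* and *Apc* were added after their values were seen. Lists are described by counts and medians. The alternatives were 1 value per gene (brightest or mean of its probe sets), centring on array medians, quantile normalization, a filter on dim probe sets (mean below 5, or below the median), array weights, robust eBayes with a trend, the sample number as a block, an adjusted p under 0.01, and leaving out each array in turn. The procedure was tested on simulated data, with shifts larger than any difference of the 10 genes. That test therefore does not show how well differences of their size are detected. Summaries used Python 3.11.15 (pandas 2.3.3, numpy 2.4.6, scipy 1.17.1) and plots matplotlib 3.10.9. Sequences of the genes and probes were not used here.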

Additional observations from a re-analysis of the deposited data

How the results depend on the processing

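*Drice* kept its direction and stayed called in all 15 alternatives. The count of apoptosis genes called was 1, and 2 after quantile normalization, with probe sets under a mean of 5 or under the median left out, with trend and robust eBayes and with the replicate block (*Dcp-1* was the second in each); with 1 array left out it was 1 to 2. The count of probe sets called was 1, and 2 after quantile normalization, with trend and robust eBayes and with the replicate block. With 1 array left out it was 1 to 2. The filters on dim probe sets changed the number tested as well. The filter at 5 kept 5 apoptosis probe sets, 3 of them called, and on the whole array 1631 of 5302 were called. The filter at the median kept 10, 4 of them called, and on the whole array 2206 of 9385 were. Without a filter the array count was 2072 of 18769, so a larger share of the array was called under either filter. Of the apoptosis genes, 4 and 8 remained for testing under the 2 filters. The count of other cell death genes, 17, became 10 after quantile normalization, 11 with the replicate block and 1 at an adjusted p under 0.01, and 1 to 10 with 1 array left out. For these counts the cause was not tested. The brighter *Dark* probe set turned to -0.02 after quantile normalization. With 1 array left out the differences ranged from -0.80 to 0.28 for *rpr*, -0.17 to 0.04 for *grim*, -0.32 to 0.49 for *Dronc*, -0.04 to 0.20 for the brighter *Dark* probe set and -0.10 to 0.32 for *Apc*. Arrays with the same number deviated from their group means with correlations of 0.129, 0.197 and 0.0248 (sample numbers 1, 2 and 3). Between arrays of different number the correlations ran from -0.217 to 0.119, the highest for mutant replicate 3 with wild type replicate 1. Whether samples were paired by number cannot be told from these values. Neither centring nor quantile normalization shifted the array-wide median difference by over 0.1. Signal near background limits *grim* and *skl*, and the spread of the wild-type arrays limits *rpr* and *Dronc*.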

Other observations

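Autophagy genes, a separate route of self-digestion that also runs in the dying larval midgut, included 6 called of 17 measured, all 6 higher in *Apc1* mutants, with a median difference of 0.25 over the 17. That was 35.3% of the list, against 13.7% of all genes called and 8.48% called higher. *Atg8a*, which marks autophagosome membranes, stood at 11.03, 11.02 and 11.01 in mutants, against 10.36, 10.43 and 10.60 in wild type, without overlap (difference 0.56, limma adjusted p = 0.0196). *Atg5* (0.56, limma adjusted p = 0.021), *Atg12* (0.61, limma adjusted p = 0.0494) and *Atg16* (0.66, limma adjusted p = 0.0403), whose proteins form the complex that attaches Atg8 to membranes, were called together with *Atg6* (0.56, limma adjusted p = 0.0439) and *Atg14* (0.52, limma adjusted p = 0.025), subunits of a lipid kinase complex. The kinase gene *Atg1* differed by 0.51 (limma adjusted p = 0.142). These calls were close to the threshold. After quantile normalization and with the replicate block 2 of the 17 were called, *Atg5* and *Atg8a*. Both were higher in mutants, and 2 of 17 is 11.8% of the list. Of all genes, 12.2% were called after quantile normalization (6.60% higher) and 12.3% with the replicate block (7.32% higher). With 1 array left out between 0 and 3 of the 17 were. It was 1, 0 and 0 without *Apc1* mutant replicates 1, 2 and 3, and 2, 1 and 3 without wild type replicates 1, 2 and 3.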
